A study of Mus musculus with 18 samples.

Results

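Immediate early genes are switched on within minutes of a stimulus without new protein synthesis, through signalling kinases that act on factors already bound to their promoters. Many of their products are transcription factors of the AP-1 group, in which a Fos protein pairs with a Jun protein, or with an ATF or Maf relative, to bind DNA. In muscle and heart they are known to respond to stretch, contraction, ischaemia and injury, and their transcripts are short-lived. The 10 genes described here were taken by name: Fos, Fosb and Fosl2 of the Fos family, Jun and Junb of the Jun family, the AP-1 relatives Atf3 and Maff, the zinc finger factor Egr1, and the stress-response genes Ier3 and Gadd45b. Each was matched to the 1 probe set that carried its symbol, so 10 of the 19938 genes with a probe set naming 1 gene were members. All 10 passed the filter on low values in both muscle and heart.

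Their levels were read on 18 Affymetrix arrays in 6 groups of 3, labelled as biological replicates from mice back-crossed to C57BL/6. KO mice carried a floxed Egln1 gene and a Cre recombinase restricted to skeletal muscle, WT mice carried the Cre with an unfloxed Egln1, and both genotypes received tamoxifen for 3 days before harvest to activate the Cre. Soleus and quadriceps were taken from 3 KO and 3 WT mice, with numbers in the sample descriptions taken to name the mouse, and the promoter that drives the Cre, the age and the sex are not stated there. Hearts came from a separate experiment on mice with wild-type Egln1, which received vehicle or an intraperitoneal dose of 50 mg per kg of FG-4497, an inhibitor of the EglN enzymes, and the time between dose and harvest is not stated. EglN enzymes mark the hypoxia-inducible factors (HIF) for destruction. All values are log2 levels after robust multi-array averaging (RMA), and differences are log2 differences unless a fold is named.

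Array medians lay between 6.68 and 6.81, and arrays of a group correlated at r of at least 0.986. Egln1 lay between 11.03 and 11.12 in KO soleus and between 11.22 and 11.31 in WT soleus, and between 10.67 and 10.92 in KO quadriceps and 10.94 and 10.99 in WT quadriceps. It was lower on every KO array of each muscle, but neither difference passed over all genes (limma, adjusted p = 0.438 in soleus and 0.47 in quadriceps). Where its probes lie relative to the floxed part was not examined, so this is a partial check of the labels. Cardiomyocyte markers averaged between 11.91 and 12.06 on arrays of vehicle heart against 7.99 to 8.07 in WT soleus, and fast fibre markers 13.59 in WT quadriceps against 6.66 in vehicle heart. Of the cardiomyocyte markers, Myl4 was lower in vehicle heart (7.96) than in WT soleus (10.07). Myl7 was low in both (6.50 and 6.33), and the rest of the list was higher in vehicle heart. The series title speaks of smooth muscle, whereas all samples are labelled as skeletal muscle or heart. Because whole tissue was measured, fewer cells of a type and less RNA per cell cannot be told apart.

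The sequences just upstream of 6 members are shown because these genes carry the results that follow. Ier3, Maff and Fosl2 had the largest rises in heart, Gadd45b rose in heart and in KO muscle, Fos rose in heart and was lower in KO muscle without passing the test, and Atf3 did not pass in heart. Each line gives 250 bases that end at the base before the transcription start, 5′ to 3′, from RefSeq on build GRCm38.p6. Capitals mark the core of the hypoxia response element bound by HIF (ACGTG or GCGTG) and the core of the cyclic AMP response element (TGACG), each on either strand.
Ier3, chr17:35821463-35821712, plus strand: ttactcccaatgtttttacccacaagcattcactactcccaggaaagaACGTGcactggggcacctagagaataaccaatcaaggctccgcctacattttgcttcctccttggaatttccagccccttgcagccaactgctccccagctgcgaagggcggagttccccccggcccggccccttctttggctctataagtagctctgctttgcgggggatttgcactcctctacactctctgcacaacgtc
Maff, the second of 3 listed starts, chr15:79347270-79347519, plus strand: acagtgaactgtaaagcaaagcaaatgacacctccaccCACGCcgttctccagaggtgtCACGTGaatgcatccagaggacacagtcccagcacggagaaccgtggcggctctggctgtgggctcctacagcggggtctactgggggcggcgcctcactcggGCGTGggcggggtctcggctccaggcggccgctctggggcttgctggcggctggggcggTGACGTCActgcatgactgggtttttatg
Fosl2, chr5:32136222-32136471, plus strand: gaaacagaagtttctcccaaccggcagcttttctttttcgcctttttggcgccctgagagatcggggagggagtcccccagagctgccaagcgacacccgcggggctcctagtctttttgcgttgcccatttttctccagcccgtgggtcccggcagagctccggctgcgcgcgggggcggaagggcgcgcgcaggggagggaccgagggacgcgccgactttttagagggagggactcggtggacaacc
Gadd45b, chr10:80929841-80930090, plus strand: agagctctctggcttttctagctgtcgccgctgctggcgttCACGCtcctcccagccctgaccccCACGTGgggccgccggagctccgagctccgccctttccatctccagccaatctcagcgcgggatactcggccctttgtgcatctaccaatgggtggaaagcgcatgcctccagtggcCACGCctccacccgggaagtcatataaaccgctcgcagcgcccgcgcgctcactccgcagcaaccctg
Fos, chr12:85473640-85473889, plus strand: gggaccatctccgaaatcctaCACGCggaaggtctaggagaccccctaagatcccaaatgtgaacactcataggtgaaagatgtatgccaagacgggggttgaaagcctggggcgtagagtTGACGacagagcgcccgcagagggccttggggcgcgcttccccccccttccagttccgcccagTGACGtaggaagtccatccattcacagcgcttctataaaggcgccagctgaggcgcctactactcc
Atf3, chr1:191183334-191183583, minus strand: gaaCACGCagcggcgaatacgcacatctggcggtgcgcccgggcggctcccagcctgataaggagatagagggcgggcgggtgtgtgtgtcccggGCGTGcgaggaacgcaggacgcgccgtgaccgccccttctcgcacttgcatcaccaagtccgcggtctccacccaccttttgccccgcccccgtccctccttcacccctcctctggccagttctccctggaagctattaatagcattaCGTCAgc
RefSeq windows were searched for 9 of the 10 members, and Egr1 was left out of this search. The hypoxia core occurred in 6 of these 9 genes. It occurred in 41.5% of the 27025 genes and 38.6% of the windows that were searched. Shares of all genes in this paragraph refer to these 27025 genes. Of the 7 members with a window that rose in heart, 5 held it (Fos, Junb, Ier3, Maff and Gadd45b), while Fosb and Fosl2 did not. Atf3, which did not pass in heart, held it as well, and Jun did not. The single site of Ier3 began 202 bases and that of Fos 229 bases upstream of the start, and Maff (second start) and Gadd45b held 4 matches each. In Maff and Gadd45b the core overlapped with an E-box (CACGTG), a palindrome that was found in 6.86% of all genes. Because it matches on both strands, the matches at 191 and 190 bases in Maff are the same stretch. The same holds for those at 185 and 184 bases in Gadd45b. The core TGACG occurred in Fos, Fosb, Junb, Atf3 and Maff, against 19.8% of all genes, and the full element TGACGTCA in only Maff among these 9 members, 29 bases upstream of its second start, against 1.77% of all genes. An AP-1 site (TGANTCA) and a CArG box, the element of serum response factor, were in none of the members' windows, against 7.82% and 1.62% of all genes. Maff was counted as holding a site when any of its 3 windows held it. Its matches to the hypoxia core, the E-box and TGACGTCA all lay at start 2. The Maff windows at starts 1 and 3 held none of these, and start 3 held 1 match to TGACG. Only 250 bases were searched and Egr1 was not, so sites further upstream or in Egr1 would not be seen. A match is a description of letters, and binding was not measured.

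In heart, 8 of the 10 members were higher after FG-4497, with no overlap between treated and vehicle arrays. Jun and Atf3 were the exceptions. Of 13431 genes tested in heart, 1.30% were called higher (limma, adjusted p under 0.05), and 8.38% had treated arrays that all lay above all vehicle arrays. The members and the gene lists below were chosen with earlier results of these data known. Their counts beside shares of all genes are therefore a description and not a test of the set. The median log2 difference was 0.76 over the 10 members and -0.002 over all genes tested.

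Among the Fos family, Fosl2, which encodes the AP-1 subunit Fra-2, moved most. Its vehicle arrays read 8.90, 8.75 and 8.69 and its FG-4497 arrays 10.33, 10.10 and 10.55. The treated hearts stood clear of the vehicle hearts by more than the whole spread within each group, a 2.92-fold rise (log2 difference 1.54, SE 0.12, adjusted p = 6.31e-05). Fosb read 6.54, 6.68 and 6.37 with vehicle and 7.16, 7.11 and 7.08 with FG-4497, and rose by 0.59 (SE 0.09, adjusted p = 0.00972). Fos itself moved least of the family. It read 6.47, 6.42 and 6.37 with vehicle and 7.10, 6.79 and 6.86 with FG-4497, near the filter level of 6.26 in vehicle hearts, and rose 1.41-fold (log2 0.50, SE 0.10, adjusted p = 0.0262). Vehicle hearts also read low for Fosb (6.37 to 6.68), Maff (6.59 to 6.73) and Junb (6.63 to 6.89), where array medians lay between 6.68 and 6.81. For Fos, 6 of 12 alternatives did not pass, namely without a filter on low values, without any 1 of the 3 vehicle arrays and without FG-4497 replicate 1 or 3 (adjusted p from 0.0563 to 0.117 in these 6).

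The Jun family divided. Junb, often an antagonist of Jun within AP-1, read 6.63, 6.89 and 6.63 with vehicle and 7.43, 7.35 and 7.31 with FG-4497, a 1.56-fold rise (log2 0.64, SE 0.09, adjusted p = 0.00595). Jun read 9.71, 9.41 and 9.98 with vehicle and 9.59, 9.91 and 9.84 with FG-4497. The groups overlapped, and the difference of 0.08 had a 95% interval from -0.23 to 0.39 (adjusted p = 0.94), which leaves out a rise as large as that of Junb.

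Of the AP-1 relatives, Maff, a small Maf protein that lacks an activation domain of its own, rose 3.39-fold. Its vehicle arrays read 6.62, 6.73 and 6.59 and its FG-4497 arrays 8.45, 8.05 and 8.72 (log2 1.76, SE 0.14, adjusted p = 9.82e-05). Atf3, a repressor induced by many kinds of cell stress, read 8.03, 8.16 and 8.11 with vehicle and 8.52, 8.04 and 8.03 with FG-4497. Only replicate 1 of the treated hearts lay above the vehicle range, and the difference of 0.09 did not pass (95% interval -0.19 to 0.38, adjusted p = 0.91).

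Ier3, a stress-inducible modulator of cell survival and of ERK signalling, rose most of the members. It read 8.41, 8.50 and 8.48 with vehicle and 10.13, 10.45 and 10.42 with FG-4497, a 3.65-fold rise (log2 1.87, SE 0.10, adjusted p = 8.78e-06). By p-value it was at rank 2 of all 13431 genes, and by size of rise at rank 4, with Maff at rank 6 and Fosl2 at rank 11. Gadd45b, which binds and activates kinases upstream of p38 and JNK, read 8.08, 8.23 and 8.15 with vehicle and 9.30, 8.70 and 9.09 with FG-4497, a 1.84-fold rise (log2 0.88, SE 0.14, adjusted p = 0.00843). Egr1, a zinc finger factor induced through ERK and serum response factor, varied widely within both groups. It read 7.65, 8.33 and 8.33 with vehicle and 9.58, 9.15 and 8.84 with FG-4497, a 2.12-fold rise (log2 1.08, SE 0.21, adjusted p = 0.0271). Egr1 did not pass in 5 of 12 alternatives, namely without FG-4497 replicate 1 or 2, with no filter on low values, with a trended prior variance and with the replicate number as a block (adjusted p from 0.0708 to 0.173 in these 5).

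**Figure D1:**
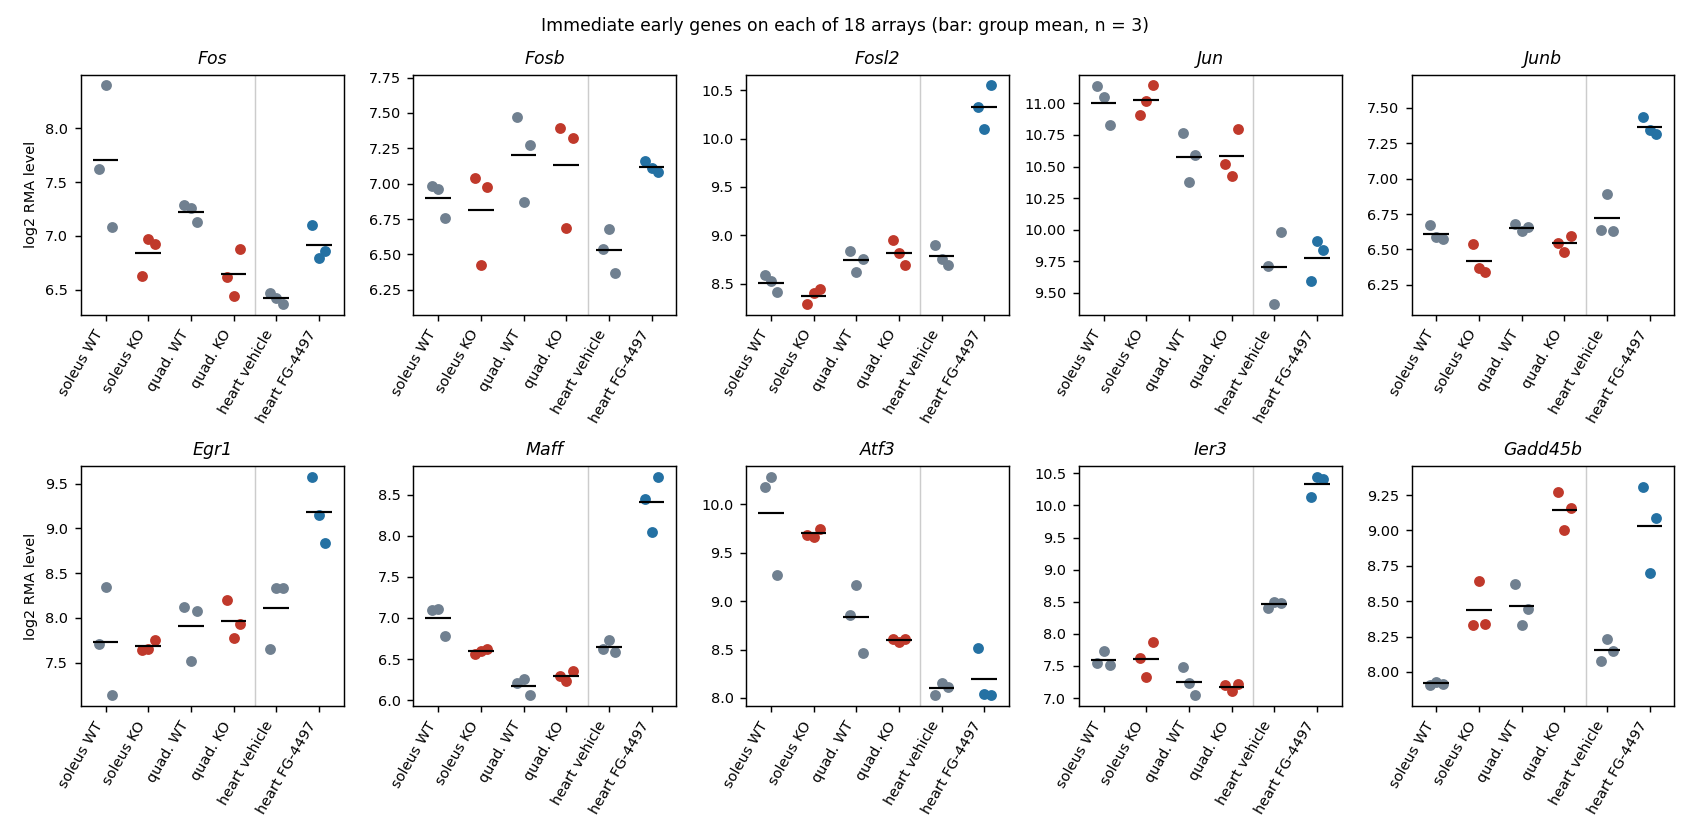
Each panel plots 1 gene, with the log2 RMA level on the vertical axis (scales differ between panels) and the 6 groups along the horizontal axis; points are single arrays and bars are means of 3. FG-4497 hearts (blue) stand above vehicle hearts without overlap in all panels except Jun and Atf3, and Gadd45b stands higher in KO (red) than in WT (grey) in both muscles.

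Markers of other cells were read beside these rises. Of 5 neutrophil markers, the list mean lay between 5.55 and 5.70 in vehicle hearts and between 6.08 and 6.14 in treated hearts. Only S100a9 passed the filter, and it rose by 0.72 (adjusted p = 0.00941), while S100a8, Ly6g and Cxcr2 stayed below the filter level on all 6 heart arrays. Alas2, the erythroid form of the first enzyme of haem synthesis, rose by 0.96 (adjusted p = 0.00799). It was the 1 marker of the erythroid list with a probe set that named a single gene. The part of these cells in the members' rises was not tested. None of 10 macrophage and leukocyte, 7 endothelial, 6 fibroblast, 6 smooth muscle and pericyte or 8 cardiomyocyte markers passed in heart by limma, with unadjusted p under 0.05 for 4 of the endothelial, 2 of the leukocyte and 0 of the other markers, where 10.6% of all 13431 tested genes reached it in heart.

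Other genes of the immediate early response were read as lists. Of 17 tested transcription factors outside the members, 14 differences were above 0, 1 rose and 1 fell. Cebpd, a C/EBP factor of acute inflammation, rose by 0.81 (adjusted p = 0.0237), and Ier5, a regulator of heat shock factor, fell by 0.70 (adjusted p = 0.018). Nr4a1, an orphan nuclear receptor, stood at 0.71 and missed the threshold (adjusted p = 0.0562). The Egr1 relatives Egr2, Egr3 and Egr4 stood at 0.13, 0.13 and 0.22, and none passed (adjusted p from 0.384 to 0.874). Of 17 effectors, 3 rose: Plk2, a polo-like kinase, by 1.18 (adjusted p = 0.000588), Sik1, a kinase induced by cyclic AMP, by 1.10 (adjusted p = 0.00185) and Phlda1 by 0.96 (adjusted p = 0.0342).

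Genes that damp the response had 5 of 16 tested members called, all higher. Spry4, an inhibitor of receptor tyrosine kinase signalling, rose by 1.29 (adjusted p = 4.76e-05), Errfi1, an inhibitor of the EGF receptor, by 1.00 (adjusted p = 0.000794), Dusp4, a phosphatase of MAP kinases, by 0.67 (adjusted p = 0.0326) and the antiproliferative Btg2 by 0.56 (adjusted p = 0.03). Zfp36l2, which speeds decay of AU-rich mRNAs, rose by 0.46 (adjusted p = 0.0308). Dusp6, a phosphatase selective for ERK, stood at 0.05 (adjusted p = 0.951). The list medians were 0.37 for feedback genes, 0.27 for the transcription factors and 0.18 for the effectors, beside -0.002 for all genes tested. An unadjusted p under 0.05 was reached by 10 of 16 feedback genes, 12 of 17 transcription factors and 8 of 17 effectors (limma), where 10.6% of all genes reached it.

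No gene passed in the lists of binding partners and of the upstream pathways. None of 15 other AP-1 and ATF genes passed, the largest difference being that of Batf2 at -0.26, with Fosl1 at 0.23 and Jund at 0.00, and the list median was -0.003 (3 of 15 had an unadjusted p under 0.05 in limma, against the same 10.6% of all genes). Among 6 relatives and partners of Maff none passed, the largest difference being that of Mafk at 0.39 (limma, adjusted p = 0.074; 2 of 6 unadjusted). None of 9 Gadd45 relatives and kinases of the p38 and JNK pathway passed, with Gadd45a at -0.13 and Gadd45g at 0.24 (0 of 9 unadjusted). None of 9 genes of the ERK and serum response factor pathway passed, with Elk3 at -0.27 and Srf at 0.15 (3 of 9 unadjusted). Over all 7 lists, 9 of 89 tested genes rose and 1 fell (limma, adjusted p under 0.05), where 1.77% of all genes passed in either direction.

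**Figure D2:**
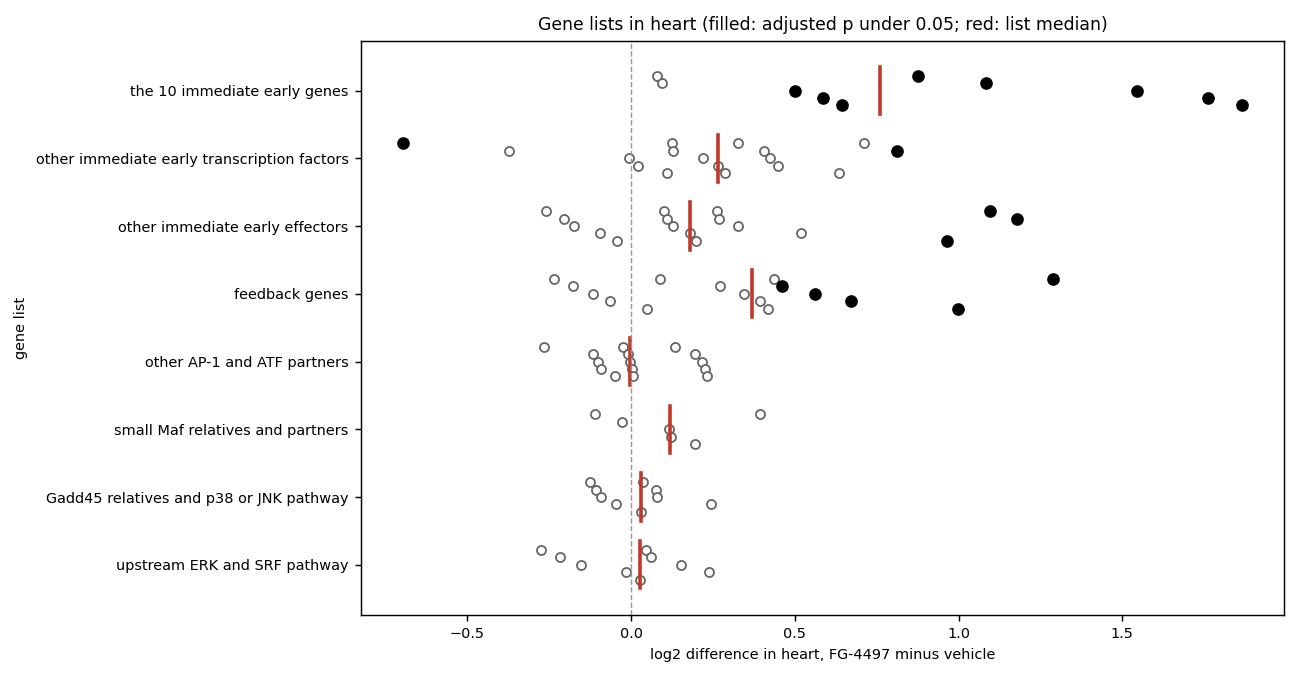
The horizontal axis gives the log2 difference in heart, FG-4497 minus vehicle, and each row of points is a gene list; filled points passed at adjusted p under 0.05 and red bars are list medians. Rises lie among the 10 members and in the lists of transcription factors, effectors and feedback genes, while no point is filled in the 4 lists of partners and upstream genes.

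In muscle, Gadd45b was the 1 member that passed between KO and WT, in quadriceps and in the average over both muscles. Of 10 members, 0 were called in soleus and 1 in quadriceps, where 0.180% and 0.683% of 13318 tested genes were called (limma, adjusted p under 0.05). At an unadjusted p under 0.05 the counts were 4 of 10 in soleus and 2 of 10 in quadriceps, against 7.23% and 11.6% of all genes. The groups did not overlap for 4 members in soleus (12.2% of all genes) and for 3 in quadriceps (16.5% of all genes).

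Gadd45b was higher on every KO array than on any WT array of the same muscle. In quadriceps the WT arrays read 8.62, 8.33 and 8.45 and the KO arrays 9.27, 9.003 and 9.16, a 1.60-fold rise (log2 0.68, SE 0.10, adjusted p = 0.0105). It did not pass when an array was left out in 3 cases, with adjusted p = 0.0512 without WT replicate 2, 0.0538 without WT replicate 3 and 0.067 without KO replicate 1. In soleus the WT arrays lay close together at 7.91, 7.93 and 7.92 and the KO arrays at 8.33, 8.64 and 8.34. The soleus difference of 0.52 (SE 0.10) missed the threshold (adjusted p = 0.0795), and passed with a trended prior variance (adjusted p = 0.0382) and with estimated array weights (adjusted p = 0.0413). Averaged over both muscles, Gadd45b rose 1.51-fold (log2 0.60, SE 0.08, adjusted p = 0.00282), at rank 20 of 13318 genes by p-value. This call held in 21 of 21 alternatives, with adjusted p from 0.000727 to 0.0132. The averaged comparison called 0.833% of all genes and no other member. When both muscles of a mouse were averaged, KO mice read 8.80, 8.82 and 8.75 and WT mice 8.18, 8.27 and 8.13. The effect did not differ detectably between muscles (difference -0.16, 95% interval -0.44 to 0.13, adjusted p = 0.927).

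Fos was lower in KO than in WT muscle without overlap, and did not pass. In soleus the WT arrays spread from 7.08 to 8.40, with 7.62 between them, and the KO arrays read 6.63, 6.97 and 6.92. The lowest WT array, replicate 3, thus lay close to the highest KO array, and KO minus WT was -0.86 with an SE of 0.24 (adjusted p = 0.286). In quadriceps the WT arrays read 7.28, 7.26 and 7.13 and the KO arrays 6.62, 6.44 and 6.87, and KO minus WT was -0.58 (SE 0.24, adjusted p = 0.38). Averaged over both muscles the difference was -0.72 (SE 0.19, adjusted p = 0.112). Without soleus WT replicate 3, the lowest WT array, Fos passed in soleus (-1.17, adjusted p = 0.0359) and in the average (-0.88, adjusted p = 0.0127). In soleus it did not pass in 14 of 16 alternatives (limma, adjusted p up to 0.687), and the difference ranged from -1.17 to -0.52. In the average it did not pass in 19 of 21 (adjusted p up to 0.292).

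That array lay at the low end of a wide spread among the WT soleus samples, with replicate 2 at the high end. Replicate 3 was the lowest of its group for 9 of 10 members, and replicate 2 the highest for 6. Fast fibre markers averaged 12.40 on replicate 3, 12.81 on replicate 1 and 13.27 on replicate 2. The fast myosin Myh4 read 8.99, 10.90 and 13.31 in the same order. KO soleus arrays lay between 13.01 and 13.08 for the mean of the fast fibre markers. In each other muscle group, the array that was lowest for the most members had instead the highest fast fibre mean. These arrays were KO soleus replicate 1 (lowest for 6 members, mean 13.08), KO quadriceps replicate 2 (9 members, 13.70) and WT quadriceps replicate 2 (6 members, 13.645). When the mean of the fast fibre markers entered the fit as a covariate, an alternative chosen after the data were seen, the Fos difference became -1.15 in soleus (SE 0.15, adjusted p = 0.00896), -0.67 in quadriceps (adjusted p = 0.065) and -0.91 in the average (adjusted p = 0.00412). With slow fibre markers in their place, Fos did not pass in any of these (adjusted p = 0.314, 0.473 and 0.152). For Gadd45b the fast fibre covariate gave 0.54, 0.68 and 0.61 (adjusted p = 0.133, 0.0183 and 0.00629).

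**Figure D3:**
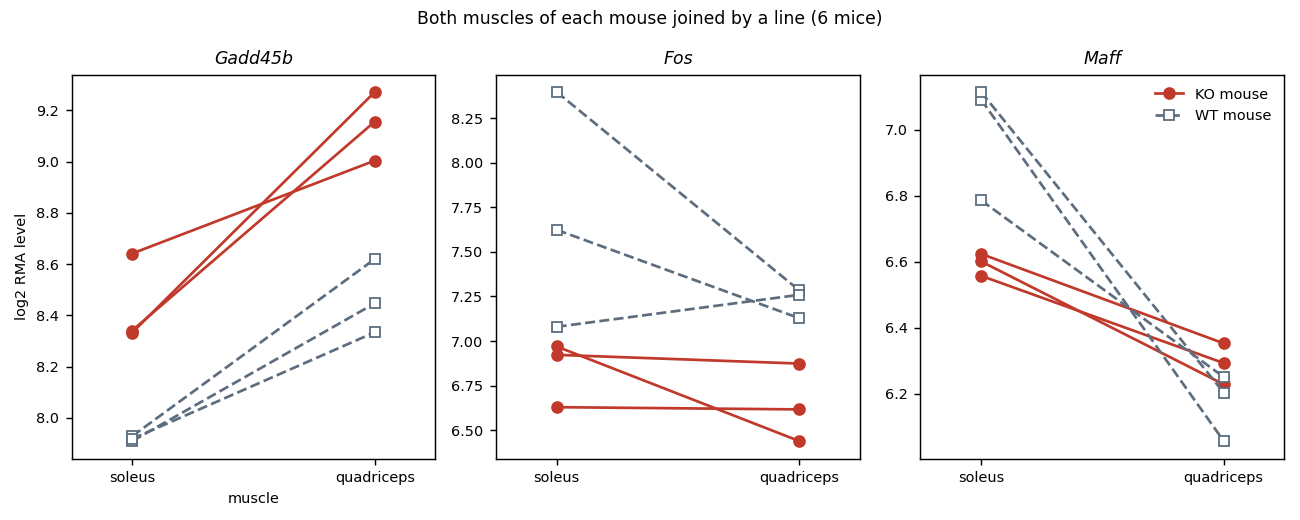
The vertical axis gives the log2 RMA level and each line joins the soleus and quadriceps arrays of 1 mouse (3 KO, red solid; 3 WT, grey dashed). Gadd45b lines of KO mice lie above and Fos lines of KO mice below those of WT mice in both muscles, whereas for Maff the genotypes separate in soleus and overlap in quadriceps.

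Maff separated the genotypes in soleus and not in quadriceps, and the test of the difference between muscles did not pass. In soleus its WT arrays read 7.09, 7.11 and 6.79 and the KO arrays 6.56, 6.60 and 6.62, without overlap, a difference of -0.40 (SE 0.09, adjusted p = 0.118). In quadriceps the WT arrays read 6.20, 6.25 and 6.06 and the KO arrays 6.29, 6.23 and 6.35, around the filter level of 6.19, and the difference was 0.12 (SE 0.09, adjusted p = 0.675). The soleus effect minus the quadriceps effect was -0.52 (95% interval -0.77 to -0.28, adjusted p = 0.312). This comparison of effects called 0.00% of genes (limma; 854 genes, or 6.41%, had an unadjusted p under 0.05, Maff alone among the members). Without soleus WT replicate 3 it passed for Maff (-0.64, adjusted p = 0.0407), as did the soleus difference (-0.52, adjusted p = 0.0119), and the soleus difference also passed with the fast fibre covariate (-0.48, adjusted p = 0.0314). The soleus difference of Maff did not pass in 14 of 16 alternatives (limma, adjusted p up to 0.429). Its difference between muscles did not pass in 20 of 21 (adjusted p up to 0.833).

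Junb was lower on all KO arrays of both muscles by small amounts, at levels not far above the filter level of 6.19. It read 6.67, 6.59 and 6.57 in WT soleus and 6.54, 6.37 and 6.34 in KO soleus, a difference of -0.20 (SE 0.06, adjusted p = 0.419). In quadriceps it read 6.68, 6.63 and 6.66 in WT and 6.55, 6.48 and 6.59 in KO, a difference of -0.11 (SE 0.06, adjusted p = 0.553). Neither difference passed, nor did the average over muscles (-0.15, SE 0.05, adjusted p = 0.209).

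The 6 other members overlapped between genotypes in both muscles. Jun stood at 0.02 in soleus (95% interval -0.23 to 0.26) and 0.00 in quadriceps (-0.24 to 0.25), and Ier3 at 0.01 (-0.26 to 0.29) and -0.07 (-0.35 to 0.20). For Ier3 these intervals leave out a change of the size seen in heart, where it rose by 1.87. Fosl2 stood at -0.13 and 0.08, and its intervals (-0.31 to 0.05 and -0.10 to 0.26) likewise leave out its heart rise of 1.54. Egr1 stood at -0.05 and 0.06, Fosb at -0.09 and -0.07, and Atf3 at -0.21 and -0.23, with adjusted p from 0.798 to 0.988 over these 3 genes and both muscles. KO and treated hearts come from separate experiments with different mice and interventions, and the difference between their effects was not tested.

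**Figure D4:**
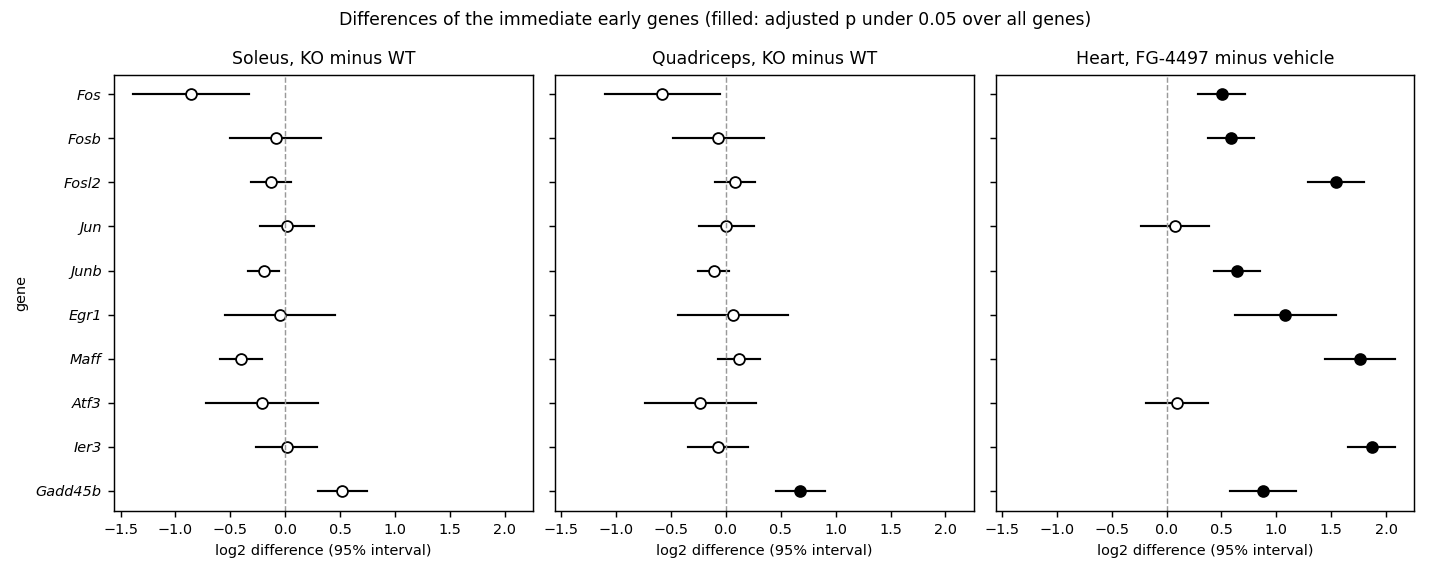
Points give the log2 difference of each member in KO soleus, KO quadriceps and FG-4497 heart against their controls, and lines are 95% intervals from limma; filled points passed at adjusted p under 0.05. In heart 8 points are filled and above 0, while in muscle the only filled point is Gadd45b in quadriceps.

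None of 88 tested genes of the 7 lists passed in soleus or in quadriceps alone by limma. In each muscle 14 of the 88 had an unadjusted p under 0.05 (limma), where 7.23% of all genes had it in soleus and 11.6% in quadriceps. The largest differences were those of Nr4a3, an orphan nuclear receptor, at -0.55 in soleus (adjusted p = 0.743), and of Gadd45g, a relative of Gadd45b, at -0.54 in quadriceps (adjusted p = 0.706). Averaged over both muscles, 1 rose and 1 fell, where 0.833% of all genes passed. Plk2 rose by 0.39 (SE 0.07, adjusted p = 0.0205), with 0.35 in soleus and 0.44 in quadriceps, and Mrtfa, a coactivator of serum response factor, fell by 0.30 (log2; SE 0.06; adjusted p = 0.0255). Marker lists of leukocytes, endothelium, fibroblasts, smooth muscle, adipocytes and nerve had 0 called genes in either muscle by limma. An unadjusted p under 0.05 (limma) was reached in soleus by 1 of 7 endothelial, 1 of 6 smooth muscle and 1 of 3 nerve markers. In quadriceps it was reached by 2 of 6 smooth muscle and 1 of 4 adipocyte markers, beside the same shares of all genes.

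The muscles themselves differed in these genes. In WT mice 6 of 10 members differed between soleus and quadriceps, 4 higher and 2 lower in soleus, where 21.3% and 24.4% of all genes were called higher and lower and 45.7% in either direction. The same 6 members did not overlap between the muscles, against 53.0% of all genes, so both shares lie near the background. Atf3 was 2.11-fold higher in soleus (log2 1.08, SE 0.21, adjusted p = 0.00108), from 10.18, 10.28 and 9.27 in soleus against 8.86, 9.17 and 8.47 in quadriceps. Maff was 1.77-fold higher (log2 0.83, SE 0.08, adjusted p = 2.66e-06), Jun 1.35-fold (log2 0.43, SE 0.10, adjusted p = 0.00431) and Ier3 1.27-fold (log2 0.35, SE 0.12, adjusted p = 0.0257). Gadd45b was lower in soleus by 0.55 (log2, SE 0.09, adjusted p = 0.000327), and Fosl2 by 0.23 (SE 0.08, adjusted p = 0.023). Ier3 and Fosl2 did not pass in 5 and 4 of 14 alternatives (adjusted p up to 0.145 and 0.106), among them without soleus WT replicate 2 or quadriceps WT replicate 3, while the other 4 passed in all 14. Fos, Fosb, Junb and Egr1 did not pass (adjusted p of 0.098, 0.183, 0.598 and 0.538), though Fos did without soleus WT replicate 3 (adjusted p = 0.0036), Egr1 without soleus WT replicate 2 (adjusted p = 0.0482) and Fosb in the limma fit of only the 6 WT arrays (-0.30, adjusted p = 0.0269). Slow fibre markers were 8 of 8 higher and fast fibre markers 8 of 10 lower in soleus, and endothelial markers 7 of 7 higher, and their part in the members' differences was not tested.

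Across the 6 groups, each gene had its own order of group means. FG-4497 heart had the highest mean for Fosl2, Junb, Egr1, Ier3 and Maff, and stood clear of the next group without overlap in each. For Ier3 vehicle heart came next at 8.47 ± 0.05 (SD, n = 3), above all muscle groups, followed by soleus KO at 7.61 ± 0.27 and soleus WT at 7.60 ± 0.12, which overlapped. Gadd45b was highest in KO quadriceps at 9.14 ± 0.13 and overlapped with FG-4497 heart at 9.03 ± 0.31, whereas WT quadriceps at 8.47 ± 0.14 overlapped with KO soleus at 8.44 ± 0.18. Jun fell into 3 tiers by tissue, 11.02 ± 0.12 and 11.01 ± 0.16 in KO and WT soleus, 10.58 ± 0.19 in each quadriceps group, and 9.78 ± 0.17 and 9.70 ± 0.28 in treated and vehicle heart, with overlap within a tier and none between tiers. Atf3 followed the same order of tissues, from 9.91 ± 0.56 in WT soleus to 8.10 ± 0.06 in vehicle heart, although 1 WT quadriceps array lay below 1 FG-4497 heart array. Fos was highest in WT soleus at 7.70 ± 0.66 and lowest in vehicle heart at 6.42 ± 0.05, with neighbours overlapping except between WT quadriceps and FG-4497 heart. For Fosb neighbouring groups overlapped except FG-4497 heart and WT soleus. Heart and muscle belong to separate experiments, so tissue and experiment cannot be told apart.

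Within groups the members varied together only loosely. Over the 45 pairs of members, the deviations of 18 arrays from their group means correlated at a median r of 0.19, from -0.37 to 0.73, with 6 pairs above 0.5 and 6 below 0. The closest pairs were Fos with Atf3 (r = 0.73), Fos with Egr1 (0.65) and Fosl2 with Maff (0.64). Over the 12 muscle arrays and the 6 heart arrays, Fos with Atf3 stood at 0.73 and 0.86. The other pairs differed by tissue, with Fos and Egr1 at 0.77 and 0.34 and Fosl2 and Maff at 0.22 and 0.87. Quadriceps KO replicate 2 was the lowest of its group for 9 of 10 members, as soleus WT replicate 3 was. The non-member genes most like the mean of the members in these deviations, among 12937, were Myom2, a myomesin of the sarcomeric M-band (r = 0.88), Arid5a, an RNA-binding protein that stabilises inflammatory mRNAs (0.81), Fbxo31 (0.80), Crbn, the substrate receptor cereblon (0.78), Zfyve1 (0.77), Sesn1, a stress-induced sestrin (0.76), Tango2 (0.76) and Pomt2 (0.76). These correlations describe arrays that share tissue and preparation, and those of Crbn, Zfyve1 and Tango2 were 0.26, 0.17 and 0.05 over the heart arrays alone.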

How the data were processed

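Per the submitters' processing notes, the authors produced the values by RMA (background correction, quantile normalization and probe summary), so each deposited value is a log2 level. No source used here gives the version of RMA or which arrays were normalized as one set. Of 35556 probe sets, 21789 named 1 gene, and each gene was represented by its brightest probe set. Of these, 21698 were matched by gene identifier to the RefSeq table of GRCm38.p6, which gave their current symbols. Genes whose mean lay below the 40th percentile of probe set means (6.19 in muscle, 6.26 in heart) were left out, leaving 13318 and 13431 genes.

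Tests used limma 3.58.1 in R 4.3.3. The fits were tried on simulated arrays with independent noise. Planted changes there left out low genes and were larger than any KO difference of a member. Small differences, low genes and muscles that share a mouse were thus not covered. The 12 muscle arrays were fitted together with mouse number as a random block (consensus correlation 0.17), the 6 heart arrays on their own. Calls are at a Benjamini-Hochberg adjusted p under 0.05 over all genes tested, and intervals are 95%. Arrays have no read depth, so 3 arrays per group limit precision, and the smallest exact permutation p for 3 against 3 is 0.1. The mouse numbers come from the sample descriptions; deviations of the 6 soleus and quadriceps pairs correlated at r from -0.0005 to 0.377.

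Members and lists were chosen with earlier results of these data known. From each list, called genes are named, up to 4 a comparison, or else the gene with the largest difference, and the 8 genes most like the members' mean deviation are named. Zfp36l2, Nr4a1, Egr2, Egr3, Egr4, Dusp6, Fosl1, Jund, Gadd45a, Srf, S100a8, S100a9, Ly6g, Cxcr2, Alas2, Myh4, Myl4 and Myl7 lie outside this rule and were named after their values were seen. Alternatives were repeated quantile normalization, no filter, a trended robust prior, array weights, the mean over probe sets, replicate number as a block, no mouse block, only the arrays compared, fibre covariates and leaving out each array. In every fit no array was imputed, and no arrays were identical.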

Additional observations from a re-analysis of the deposited data

How the results depend on the processing

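Over 25 member differences that passed, had an unadjusted p under 0.05 or had groups without overlap, no sign turned in 376 alternative values, 23 calls were lost and 9 gained. These 25 were picked for being large against their spread, and several settings change the test but not the difference. Their stable signs were thus largely fixed by the choice and do not measure robustness. The other 35 differences did not pass and had an unadjusted p of at least 0.05 (limma). Their groups overlapped wherever overlap was read, which leaves out the average over muscles and the difference of effects. In these 35 the sign turned in 63 of 624 values, and 3 calls were gained, all in WT soleus against WT quadriceps. Members called in soleus KO against WT went from 0 to 1 with a trended prior, 1 with array weights, 2 with the fast fibre covariate (chosen after the data were seen), and 0 to 2 when arrays were left out in turn. In quadriceps leaving out arrays gave 0 to 1, in the average over muscles 1 to 2 (also 2 with the fast fibre covariate), in the difference of effects 0 to 1, in WT muscles 4 to 6 and in heart 6 to 7.

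Genes called in soleus went from 24 to 62 with array weights, 12 from the 6 arrays compared and 7 to 43 with arrays left out. In quadriceps 91 became 42 with no filter, 197 with array weights, 25 from the 6 arrays compared, 52 with the slow fibre covariate and 27 to 75 with arrays left out. In the average over muscles 111 became 215 with array weights, 168 with no mouse block and 62 to 153 with arrays left out. The difference of effects went from 0 to 1 with repeated quantile normalization, 2 with a trended prior, 2 with array weights, 3 with the slow fibre covariate and 0 to 4 with arrays left out. In heart 238 became 147 with no filter, 373 with a trended prior and 137 to 193 with arrays left out. The cause was not tested.

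The replicate numbers of the titles mark different mice in KO and WT and in treated and vehicle groups, and same-numbered arrays correlated at r from -0.285 to 0.176. With this number as a replicate block, genes called in quadriceps became 60, the calls of Egr1 in heart (adjusted p = 0.0708) and Ier3 between WT muscles (adjusted p = 0.0648) were lost, and no other call of a member changed.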
